A study of Mus musculus with 38 samples.

Results

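Dusp1, Dusp4, Dusp5 and Dusp6 encode dual-specificity phosphatases that inactivate MAP kinases, and ribosome footprints on their mRNAs were followed in cultured mouse cortical neurons. Counts were scaled within each library, so a change in all footprints together is not seen. RNA levels, which the study measured in resting and KCl-depolarized neurons, were not used here. A change in mRNA amount therefore cannot be told apart here from one in translation per mRNA. The genes were chosen by name, 4 of the 22401 genes with a coding sequence (CDS) counted here, and their footprints were taken from the longest transcript of each gene. All 4 passed the filter on low counts in every comparison below. PL-Ribo-seq, which joins proximity labelling with ribosome profiling, gave 38 libraries in 14 groups of 2 or 3, with an input library of all ribosome footprints and a pulldown library of footprints from biotinylated complexes. Neurons carried a lentivirus for TurboID-PSD95, a biotin ligase directed to dendrites by parts of PSD95, a scaffold of excitatory synapses, or for Pan-TurboID, the same ligase with no localization signal.

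Resting neurons and neurons depolarized with 55 mM KCl for 1 h were profiled with both ligases in 3 replicates, which made 8 groups. Before KCl and before DHPG, the neurons had been silenced with TTX, a blocker of sodium channels, and DL-AP5, an NMDA receptor antagonist, for 2 h. The labels state this silencing for the KCl and DHPG groups alone, so in contrasts with resting neurons it cannot be told apart from KCl or DHPG. DHPG, which activates metabotropic glutamate receptors of group I, was given at 100 µM for 10 min to neurons with TurboID-PSD95, in 3 replicates of input and pulldown. Knockdown neurons had received 20 nM siRNA against the translation initiation factor eIF4G2 for 72 h, carried TurboID-PSD95 and were profiled at rest and after the same KCl treatment, with 2 replicates per group. All groups received cycloheximide, which halts elongation, and a biotin pulse, so a resting library is not an untreated cell. By the study's methods, biotin was given after the KCl or DHPG medium had been replaced with fresh medium. After KCl, that medium again held TTX and DL-AP5. Harvest thus did not follow the stimulus directly. The labels give no siRNA control among these 38 libraries, and the DHPG group has no resting group of its own experiment. Both were therefore set against the TurboID-PSD95 libraries of the KCl experiment, and the treatment cannot be told apart from the experiment there. These comparisons share their TurboID-PSD95 libraries with the KCl comparisons, so the results are not independent.

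MAP kinase phosphatases remove phosphate from both the threonine and the tyrosine that activate a MAP kinase. The transcripts of Dusp1, Dusp4, Dusp5 and Dusp6 are short-lived in many cells and are induced by the kinases they switch off, which makes the proteins feedback inhibitors. In neurons, calcium entry activates the kinase ERK, which phosphorylates transcription factors of the immediate early genes. DUSP1, DUSP4 and DUSP5 act in the nucleus, where DUSP1 also inactivates the stress-activated kinases JNK and p38 and DUSP5 is selective for ERK, whereas DUSP6 acts on ERK in the cytoplasm.

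The 4 genes share a catalytic site and a compact structure. On mm10, Dusp1 lies on the minus strand at chr17:26505590-26508519, Dusp4 on the plus strand at chr8:34807297-34819894, Dusp5 on the plus strand at chr19:53529109-53542431 and Dusp6 on the plus strand at chr10:99263231-99267488. Their CDSs measure 1104, 1197, 1155 and 1146 nt in the same order, over 4, 4, 4 and 3 coding exons, and their 5′ UTRs measure 196, 432, 209 and 461 nt. The stretch that codes for the catalytic loop lies in the last coding exon of each gene. It is shown because the 4 proteins share this loop, which they have in common with other cysteine-based protein tyrosine phosphatases, with the codons of the catalytic cysteine and of the arginine that binds phosphate in capitals.
Dusp1, chr17:26506592-26506615, minus strand: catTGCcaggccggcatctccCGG
Dusp4, chr8:34818433-34818456, plus strand: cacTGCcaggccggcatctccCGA
Dusp5, chr19:53540951-53540974, plus strand: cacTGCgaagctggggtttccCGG
Dusp6, chr10:99266027-99266050, plus strand: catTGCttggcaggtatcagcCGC
These stretches start at codon 257 of 367 in Dusp1, 283 of 398 in Dusp4, 262 of 384 in Dusp5 and 292 of 381 in Dusp6.

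A footprint of 25 nt could in principle be shared between related genes. No 25-base stretch of the CDS or 5′ UTR of Dusp1, Dusp4 or Dusp6 occurred in a transcript of another gene. In Dusp5, all 209 stretches of the 5′ UTR and 314 of 1143 of the CDS also lay in AC137853.2, a gene on the opposite strand that overlaps it. Whether strand was used when reads were counted is not given in the sources used here, so the Dusp5 values are uncertain to that extent.

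Promoters were examined because Dusp1 and Dusp5 are known targets of activity-dependent transcription factors. RefSeq sequences (GRCm38.p6) of 250 bases before to 50 after the start were matched for Dusp1, Dusp5 and Dusp6. They were searched on both strands for the cAMP response element TGACGTCA, its shorter form TGACG, which the full element contains, and the CArG box bound by serum response factor. Of 32851 promoters, 1.79% held TGACGTCA, 20.8% held TGACG and 1.63% held a CArG box. The Dusp1 promoter held 1 full element, with its first base 143 bases before the start, and the Dusp5 promoter held a pair of adjacent CArG boxes, which begin 82 and 72 bases before the start. The short form TGACG matched 3 times in the Dusp1 promoter, on both strands of the full element and once 191 bases before the start, and once in the Dusp5 promoter, 55 bases before the start. Distances are from the RefSeq start, which for Dusp1 and Dusp5 is not the first base of the transcript given above. Capitals mark the full element and the CArG boxes.
Dusp1, chr17:26508597-26508626, minus strand: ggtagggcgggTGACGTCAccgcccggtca
Dusp5, chr19:53529059-53529088, plus strand: atacCCATATTTGGCCTTATATGGgcactc
None of the searched letters occurred in the Dusp6 window, and a match is a description of sequence, not a binding site.

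Total counts per library ranged from 5906281 to 35643247, and counts in the CDSs of the longest transcripts from 2048601 to 14646331. Markers of neurons summed to between 4707 and 10042 CPM (CDS counts scaled to a common library total, per 1e+06) in a library, and all 7 had a median above 1 CPM. Markers of microglia summed to at most 20.0 CPM, and 5 of 6 had a median under 1 CPM, whereas those of astrocytes summed to 90.6 to 984 CPM and those of the oligodendrocyte lineage to 12.4 to 523 CPM. Mog, a myelin protein of oligodendrocytes, was at 0 in 37 libraries. In such bulk libraries, fewer cells of a type and less RNA per cell cannot be told apart. Eif4g2, the siRNA target, had 284 and 284 CPM in resting knockdown inputs and 337 and 323 CPM in depolarized ones, against 538 to 772 CPM in the 6 resting and depolarized TurboID-PSD95 inputs without siRNA and 444 to 457 CPM in the 3 DHPG inputs. It was lower with knockdown in inputs at rest (log2 fold change −0.98 ± 0.19 SE, FDR 0.00375) and after KCl (−0.90 ± 0.19, FDR 0.0064).

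**Figure D1:**
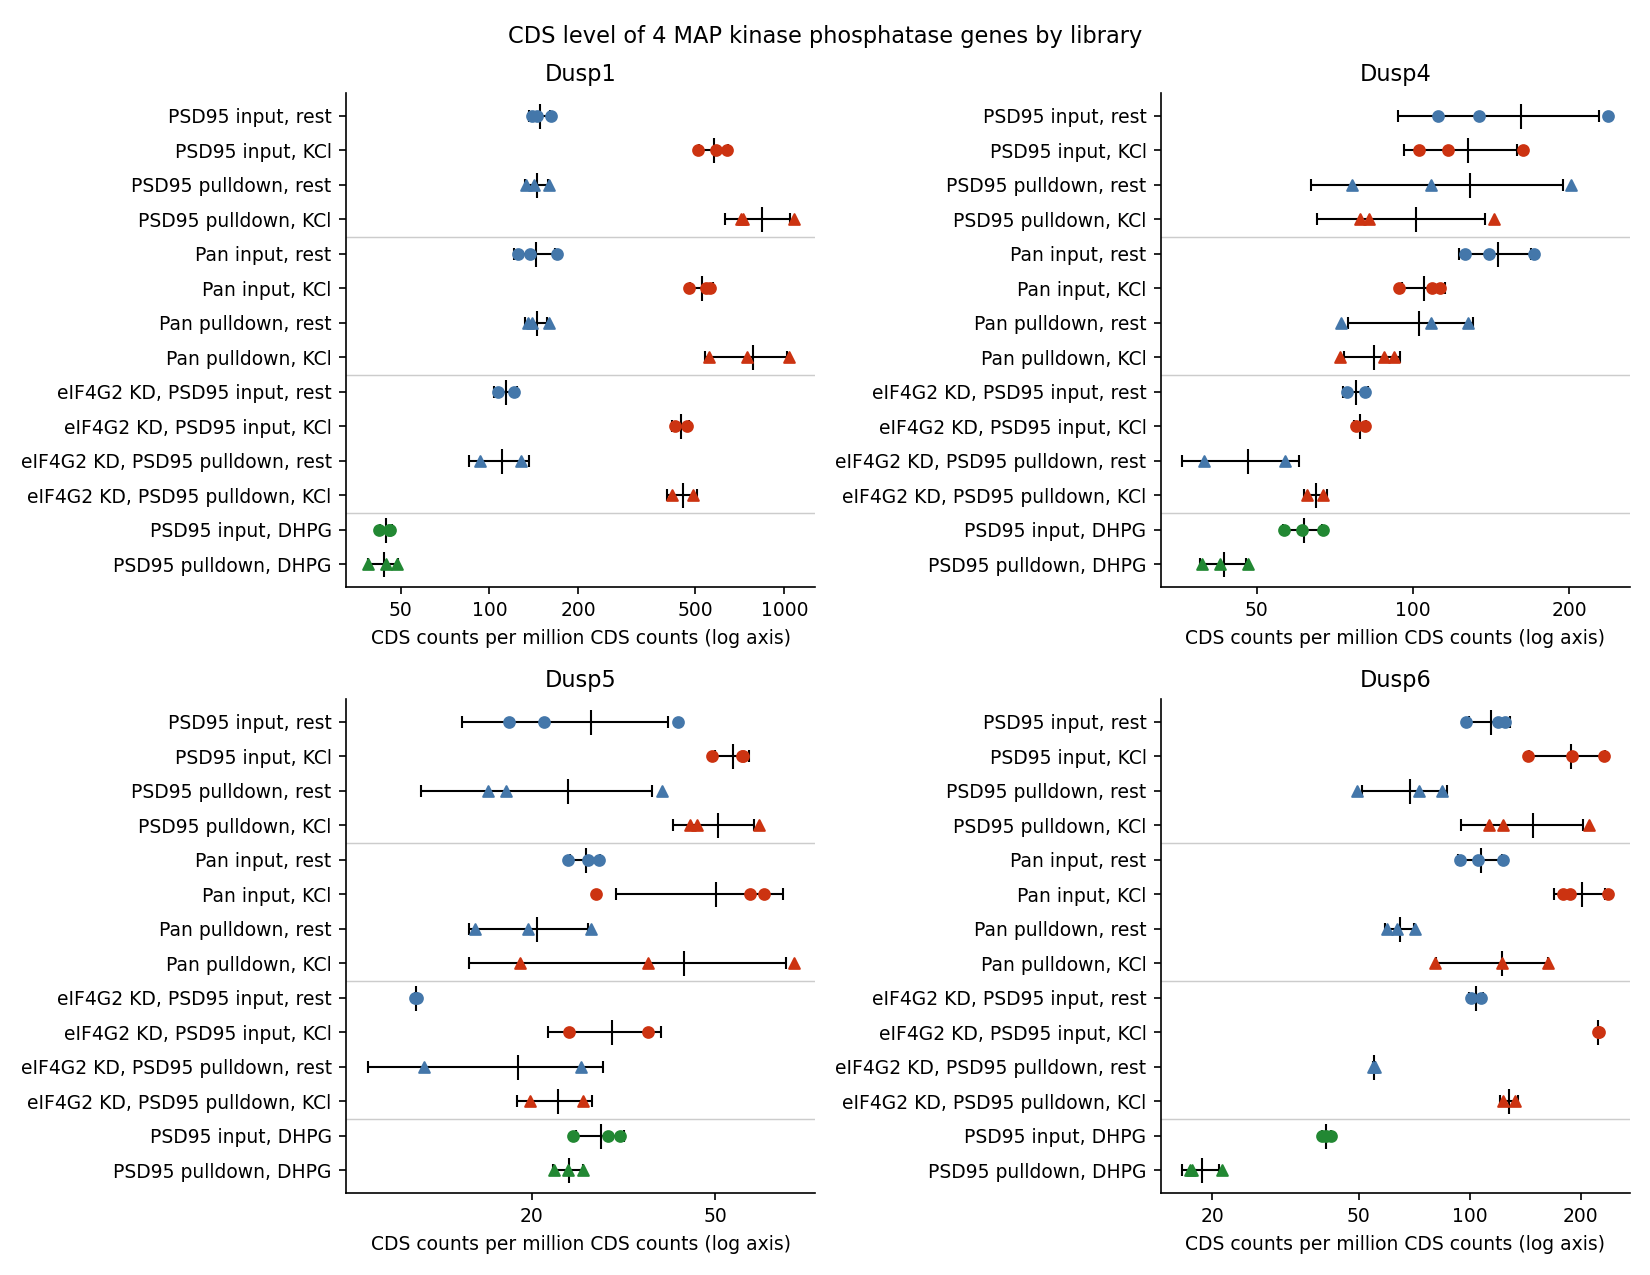
CDS level of each gene in CPM (log axis) in the 14 groups, with circles for inputs, triangles for pulldowns, blue for rest, red for KCl and green for DHPG. Vertical ticks are means and bars are 1 SD. Every Dusp1 library after KCl, at 417 CPM or more, lies above every library without KCl, whereas the KCl and resting points of Dusp4 overlap in TurboID-PSD95.

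Dusp1 was the member with the largest response to depolarization. Its CDS level rose about 4-fold in inputs and more than 5-fold in pulldowns, with either ligase. In TurboID-PSD95 inputs, Dusp1 had 139, 145 and 162 CPM at rest and 509, 639 and 588 CPM after KCl. In TurboID-PSD95 pulldowns, it had 133, 142 and 159 CPM at rest and 726, 711 and 1075 CPM after KCl. The lowest depolarized library stood above the highest resting library in each fraction. In Pan-TurboID inputs, the values were 137, 125 and 170.0 CPM at rest and 474, 560.4 and 543 CPM after KCl. In Pan-TurboID pulldowns, they were 135, 139.5 and 159 CPM at rest and 556, 749 and 1037 CPM after KCl. These groups did not overlap either. The log2 fold change was 1.97 ± 0.21 (SE, FDR 6.14e-07) in TurboID-PSD95 inputs and 2.56 ± 0.21 (FDR 1.01e-08) in pulldowns, by the quasi-likelihood test of edgeR. With Pan-TurboID it was 1.92 (FDR 9.52e-07) in inputs and 2.47 (FDR 1.2e-08) in pulldowns.

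Dusp6, which acts in the cytoplasm, also rose after KCl, by about 2-fold. In TurboID-PSD95 inputs, Dusp6 had 125, 119 and 97.7 CPM at rest and 144, 232 and 189 CPM after KCl. In TurboID-PSD95 pulldowns, it had 72.8, 84.3 and 49.3 CPM at rest and 113, 211 and 123 CPM after KCl. With Pan-TurboID, the inputs had 123, 105 and 94.2 CPM at rest and 179, 187 and 238 CPM after KCl, and the pulldowns 63.6, 70.9 and 59.7 CPM against 80.7, 122 and 163 CPM. Groups did not overlap in any of the 4 comparisons, although the lowest depolarized library was close to the highest resting library in Pan-TurboID pulldowns and in TurboID-PSD95 inputs. The rise passed the test in TurboID-PSD95 pulldowns (log2 fold change 1.12, FDR 0.00556), Pan-TurboID inputs (0.96, FDR 0.0198) and Pan-TurboID pulldowns (0.96, FDR 0.0183). In TurboID-PSD95 inputs the log2 fold change was 0.74 ± 0.24 (SE) with an FDR of 0.0787, and with the replicate number as a block it was 0.72 (FDR 0.04). Without replicate 2 the FDR was 0.122, 0.0951 and 0.09 in those 3 comparisons, and without replicate 3 it was 0.136, 0.395 and 0.427.

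Dusp5, the ERK-selective nuclear phosphatase, had the lowest mean CPM of the 4 genes in every group but the DHPG pulldowns, where Dusp6 was lower. In TurboID-PSD95 inputs, Dusp5 had 17.9, 41.4 and 21.3 CPM at rest and 57.5, 49.3 and 57.1 CPM after KCl, and in pulldowns 16.1, 38.4 and 17.6 CPM against 62.2, 45.7 and 44.0 CPM. In Pan-TurboID inputs, it had 24.0, 27.9 and 26.5 CPM at rest and 27.5, 59.3 and 63.7 CPM after KCl, and in pulldowns 15.1, 26.9 and 19.7 CPM against 18.8, 35.7 and 73.9 CPM. The groups stayed apart with TurboID-PSD95, with resting replicate 2 close to the depolarized values, and overlapped with Pan-TurboID. The log2 fold changes were 1.03, 1.06, 0.99 and 1.09 in the same order, with SEs near 0.40, and the FDRs of 0.159, 0.115, 0.186 and 0.125 missed the threshold. With the replicate number as a block, Dusp5 passed in TurboID-PSD95 pulldowns (1.16, FDR 0.0423). Leaving out 1 replicate moved the log2 fold change of Dusp5 between 0.71 and 1.65 in TurboID-PSD95 inputs, 0.59 and 1.73 in TurboID-PSD95 pulldowns, 0.84 and 1.16 in Pan-TurboID inputs and 0.50 and 1.47 in Pan-TurboID pulldowns. Averaging the response over both ligases, an alternative added after seeing the data, gave log2 fold changes of 1.01 (FDR 0.0158) in inputs and 1.08 (FDR 0.00943) in pulldowns. The average took same-numbered libraries of both ligases as separate samples, although they may come from the same biological replicate.

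Dusp4, a nuclear phosphatase of ERK and JNK, showed no response that passed the test. In TurboID-PSD95 inputs, Dusp4 had 112, 238 and 134 CPM at rest and 117, 163 and 103 CPM after KCl, and in pulldowns 76.3, 202 and 108 CPM against 82.2, 143 and 79.1 CPM. In Pan-TurboID inputs, it had 126, 171 and 140.1 CPM at rest and 93.9, 109 and 112 CPM after KCl, and in pulldowns 72.5, 127 and 108 CPM against 72.2, 87.9 and 91.7 CPM. Resting replicate 2 of TurboID-PSD95 was the highest library of Dusp4 in both fractions, as it was among the resting libraries of Dusp5. Depolarized means were below resting means throughout, with log2 fold changes of −0.34, −0.34, −0.42 and −0.24 and FDRs from 0.562 to 0.758. Leaving out 1 replicate gave ranges of −0.54 to −0.06, −0.54 to −0.13, −0.50 to −0.24 and −0.41 to −0.06 in the same order. Only in Pan-TurboID inputs did the groups not overlap, and the 95% interval of the change over both inputs ran from −0.85 to 0.09.

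Set against all 13019 genes tested, 1 of 4 members passed in TurboID-PSD95 inputs, where 4.29% of genes did, and 2 did with the replicate block, which called 927 of 13019 genes. In TurboID-PSD95 pulldowns, 2 members passed against 6.59% of genes. In Pan-TurboID inputs and pulldowns, 2 members passed in each, against 4.07% and 5.03% of genes. Over both ligases, 3 of 4 members passed in inputs (15.4% of genes) and 3 of 4 in pulldowns (18.8%). The plot of KCl fold changes with their intervals sets the 6 comparisons side by side.

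**Figure D2:**
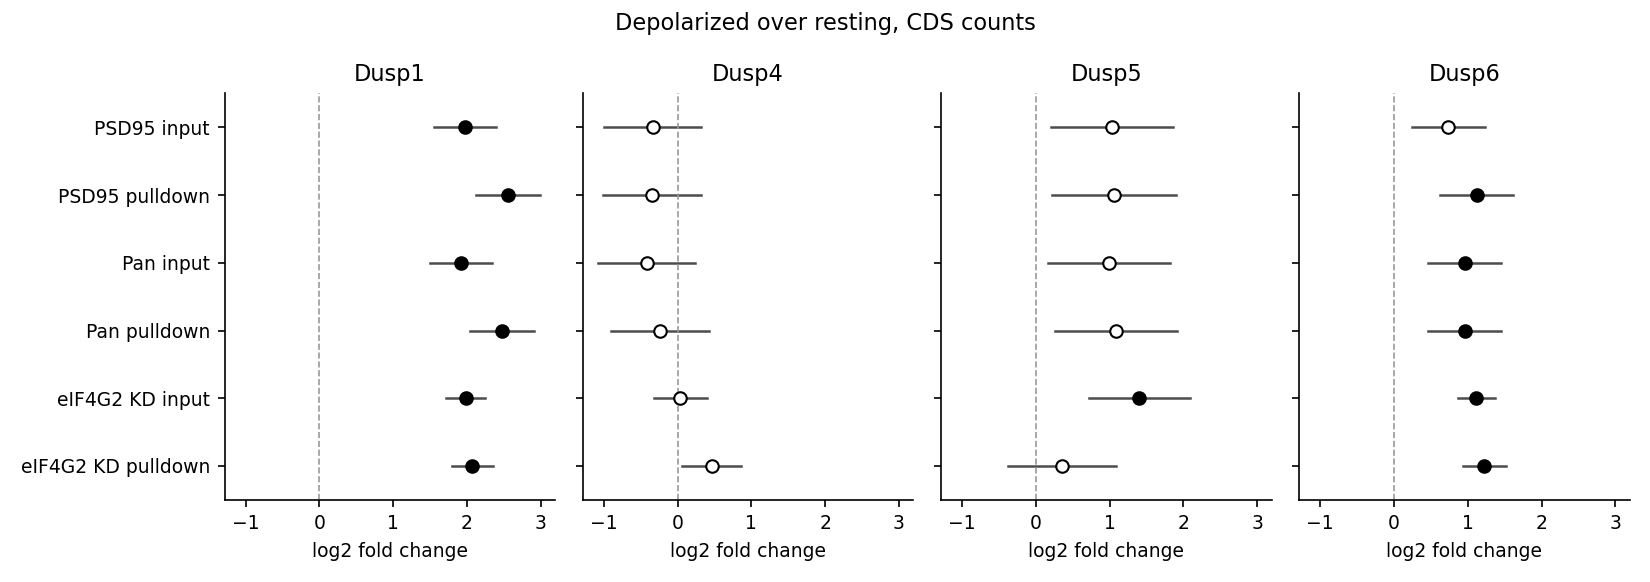
Log2 fold change of CDS counts, depolarized over resting, for the 4 genes in 6 comparisons, with 95% intervals and filled points where the FDR was under 0.05. All 6 points of Dusp1 lie between 1.92 and 2.56 and are filled, whereas no point of Dusp4 is.

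A rise in the pulldown can mirror the rise in the input, so the difference between the responses was tested itself. For Dusp1, the response in the TurboID-PSD95 pulldown exceeded that in the input by 0.59 on the log2 scale (95% interval 0.01 to 1.17), with an unadjusted p of 0.0468 and an FDR of 1.0 by edgeR. With Pan-TurboID the same difference was 0.56 (−0.02 to 1.13, unadjusted p 0.0588). Leaving out 1 replicate gave differences from 0.36 to 0.71 with TurboID-PSD95 and from 0.29 to 0.66 with Pan-TurboID. The pulldown responses of the 2 ligases differed by 0.08 (−0.49 to 0.66). For Dusp6 the pulldown exceeded the input by 0.38 (−0.31 to 1.08) with TurboID-PSD95 and by 0.00 (−0.68 to 0.68) with Pan-TurboID. No member passed in these 3 comparisons, and neither did any other gene (0.0%). At an unadjusted p under 0.05 the count of members was 1 for the TurboID-PSD95 difference and 0 for the other two, and it was 0 throughout for members past the FDR in the likelihood ratio test and in DESeq2. These intervals are wide, and equal responses were not shown.

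For Dusp6, the pulldown level was below the input level in every group, with means of 68.8 ± 17.9 (SD, n = 3) against 114 ± 14.4 CPM in resting TurboID-PSD95 neurons. The log2 ratio of pulldown to input there was −0.68 (FDR 0.0403), and with Pan-TurboID it was −0.68 at rest (FDR 0.0646) and −0.68 after KCl (FDR 0.0657). In depolarized TurboID-PSD95 neurons, it was −0.30 (FDR 0.41). Input and pulldown libraries of the same number came from the same culture in the study's scheme. The replicate block was shared by all resting and depolarized libraries of that number, with either ligase. The blocked test was therefore not paired by culture. With the replicate number as a block, the FDR was 0.0177 for Dusp6 in resting TurboID-PSD95 neurons, 0.0263 in resting Pan-TurboID neurons and 0.0277 after KCl with Pan-TurboID. Without replicate 1, 2 or 3, the unblocked FDR in resting TurboID-PSD95 neurons was 0.109, 0.0841 and 0.267.

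Dusp1 showed the opposite sign after KCl. Its depolarized pulldowns averaged 838 ± 206 CPM with TurboID-PSD95 and 781 ± 242 CPM with Pan-TurboID, against inputs of 579 ± 65.2 and 526 ± 45.8 CPM. The log2 ratio was 0.58 (FDR 0.0523) and 0.61 (FDR 0.0518), and at rest it was −0.01 and 0.05. With the replicate block the depolarized ratios were 0.56 (FDR 0.016) and 0.58 (FDR 0.0168). The test of the change between rest and KCl is the difference given above, which did not pass. Dusp4 had log2 ratios from −0.45 to −0.27 and Dusp5 from −0.30 to −0.07 in the 4 comparisons of resting or depolarized neurons without siRNA, and none passed the test.

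One member passed in resting TurboID-PSD95 neurons, where 25% of genes did, and none in the depolarized ones (12.6% of genes), the resting Pan-TurboID neurons (9.62%) or the depolarized Pan-TurboID neurons (8.79%). At an unadjusted p under 0.05 the last 3 had 1, 1 and 2 members, and the likelihood ratio test called 1 member in each and DESeq2 and the replicate block each called 1, 1 and 2. The block called 2922, 2424 and 2436 of 13019 genes there. Shares of all genes are not given for the other counts, which therefore describe the members only.

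**Figure D3:**
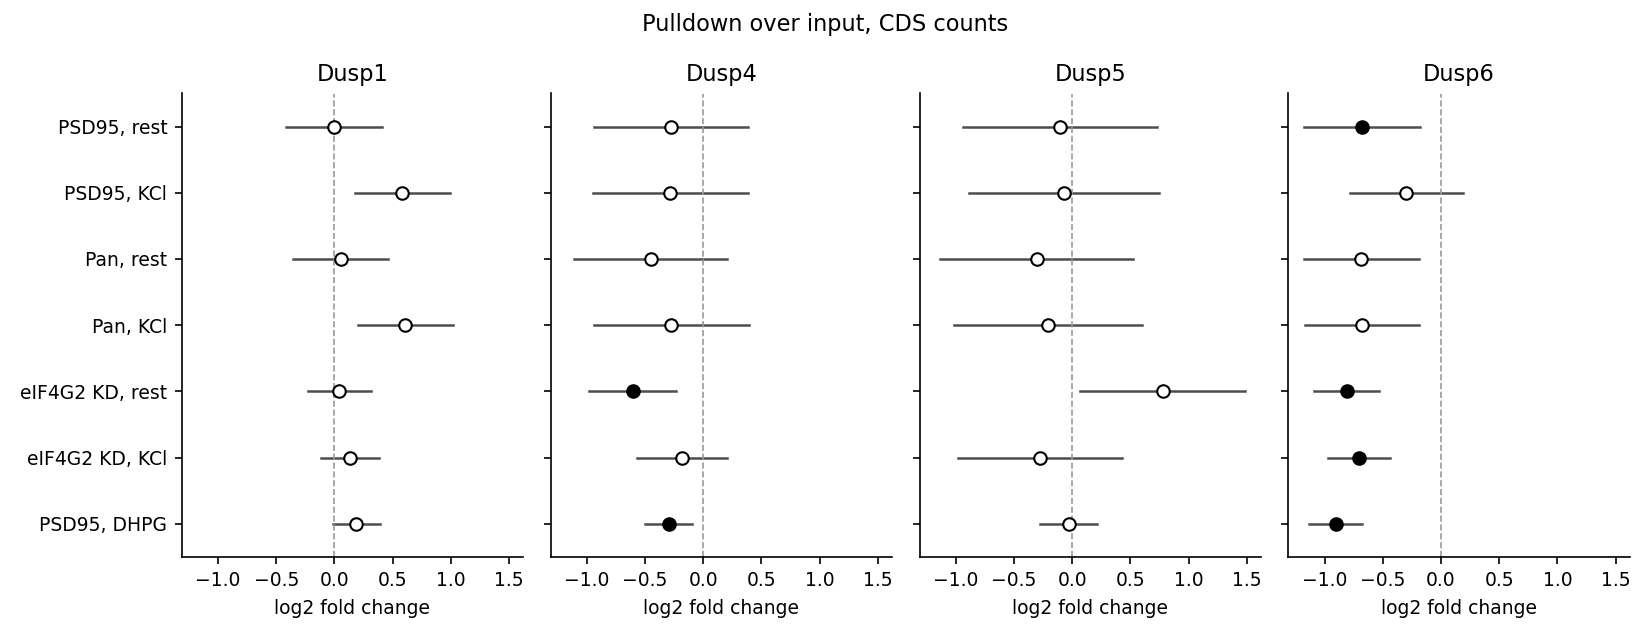
Log2 ratio of pulldown to input CDS counts for the 4 genes in 7 groups, with 95% intervals and filled points where the FDR was under 0.05. All Dusp6 points lie below 0, and Dusp1 lies at 0.58 and 0.61 after KCl without siRNA against −0.01 and 0.05 at rest.

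After DHPG, Dusp6 again was lower in the pulldown. Its inputs had 40.8, 42.0 and 39.6 CPM and its pulldowns 17.4, 17.6 and 21.2 CPM, groups that did not overlap, with a log2 ratio of −0.90 (FDR 4.5e-07). Dusp4 had 67.1, 61.0 and 56.5 CPM in inputs and 39.2, 42.4 and 48.0 CPM in pulldowns, with a log2 ratio of −0.30 (FDR 0.00925), which was 0.171 without replicate 1 and 0.0751 without replicate 2. Dusp1 had 46.1, 42.4 and 45.8 CPM in inputs and 38.6, 44.5 and 48.7 CPM in pulldowns (log2 ratio 0.19, FDR 0.0836), and Dusp5 had 31.0, 29.3 and 24.6 against 24.0, 22.3 and 25.8 CPM (−0.03, FDR 0.824). The 2 members called compare with 79.8% of all genes called in this comparison, so the count says nothing about the 4 genes.

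Dusp1, Dusp4 and Dusp6 were lower after DHPG than in resting TurboID-PSD95 neurons of the KCl experiment. Inputs gave log2 fold changes of −1.63 (FDR 3.28e-07) for Dusp1, −1.29 (FDR 0.0255) for Dusp4 and −1.38 (FDR 1.95e-05) for Dusp6. Pulldowns gave −1.48, −1.36 and −1.66. Without 1 replicate, the Dusp4 value ran from −1.59 to −0.86 in inputs and from −1.60 to −0.78 in pulldowns. Dusp5, at 0.19 in inputs (95% interval −0.55 to 0.93) and 0.21 in pulldowns, did not pass. The call of Dusp4 in inputs was lost without replicate 3 (FDR 0.0707) and with no filter on low counts (−1.25, FDR 0.0571). Dusp5 passed without replicate 2 in inputs (0.64, FDR 0.0496) and pulldowns (0.86, FDR 0.0114), so that leaving out 1 replicate gave between 2 and 4 members past the FDR in inputs and 3 or 4 in pulldowns. In inputs 32.8% of all genes passed and in pulldowns 47.7%, against 3 of 4 members in each. The 7 astrocyte markers summed to between 90.6 and 91.9 CPM in DHPG inputs and between 319 and 808 CPM in resting inputs, and the 7 markers of the oligodendrocyte lineage to between 38.3 and 43.2 CPM against 220.1 to 523 CPM. In pulldowns, the astrocyte sums were 92.2 to 99.4 CPM against 367 to 984 CPM, and the oligodendrocyte sums 12.4 to 16.9 CPM against 89.3 to 347 CPM. Their part in the differences was not tested, and DHPG cannot be told apart from the experiment.

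In neurons with eIF4G2 knocked down, Dusp1 and Dusp6 rose after KCl as well. Dusp1 had 107 and 121 CPM at rest and 425 and 468 CPM after KCl in inputs, and 92.7 and 128 CPM against 492 and 417 CPM in pulldowns. Dusp6 had 101 and 108 CPM at rest and 224 and 224 CPM after KCl in inputs, and 55.2 and 54.6 CPM against 123 and 133 CPM in pulldowns. The groups were clearly apart in both genes. The log2 fold change of Dusp1 was 1.98 (FDR 1.4e-11) in inputs and 2.07 (FDR 1.49e-11) in pulldowns, and that of Dusp6 was 1.12 (FDR 2.46e-07) and 1.22 (FDR 4.16e-07). Dusp5 rose from 11.3 and 11.2 CPM to 24.1 and 35.7 CPM in inputs (1.41, FDR 0.00325), and the FDR was 0.101 without depolarized replicate 2. In pulldowns, Dusp5 had 11.7 and 25.6 CPM against 19.8 and 25.8 CPM (0.35, FDR 0.525). Dusp4 had 74.5 and 80.6 CPM against 77.5 and 80.6 CPM in inputs (0.04, FDR 0.914) and 39.5 and 56.8 CPM against 62.6 and 67.2 CPM in pulldowns (0.46, FDR 0.0924). The last passed without resting pulldown replicate 2 (0.71, FDR 0.0206), and leaving out 1 library gave values from 0.19 to 0.71. Thus 3 members passed in inputs, where 19.3% of all genes did, and 2 in pulldowns, where 22.2% did, and without 1 library either count was 2 or 3.

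Set against the response without siRNA, the Dusp1 response differed by 0.02 (95% interval −0.58 to 0.62) in inputs and by −0.48 (−1.09 to 0.13) in pulldowns. For Dusp6 the differences were 0.39 (−0.32 to 1.1) and 0.14 (−0.59 to 0.87). For Dusp4 they were 0.38 (−0.69 to 1.46) in inputs and 0.83 (−0.28 to 1.93) in pulldowns, and for Dusp5 0.39 (−0.80 to 1.57) and −0.70 (−1.93 to 0.53). No member passed, where 0.00758% of genes passed in inputs and 0.447% in pulldowns. No member had an unadjusted p under 0.05 by edgeR, and neither the likelihood ratio test nor DESeq2 called any. The intervals were wide, so equal responses were not shown.

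Levels with and without siRNA were compared within 1 condition. Dusp4 in resting pulldowns was lower with knockdown, at 48.1 ± 12.2 (SD, n = 2) against 129 ± 65.2 CPM (n = 3), with a log2 fold change of −1.41 (FDR 0.0269). Dusp1 in depolarized pulldowns was lower, at 454 ± 53.4 against 838 ± 206 CPM, with a log2 fold change of −0.82 (FDR 0.00946). Both calls were lost without any 1 replicate number, with FDRs of 0.139, 0.18 and 0.057 for Dusp4 and of 0.0502, 0.216 and 0.0806 for Dusp1 without replicate 1, 2 or 3. In resting inputs, no member passed (3.9% of genes did). There, Dusp4 had a log2 fold change of −1.04 (FDR 0.133) and Dusp5 one of −1.24 (FDR 0.101), and these 2 members had an unadjusted p under 0.05, against 0 called by the likelihood ratio test and 1 by DESeq2. In depolarized inputs, no member passed (5.31% of genes did), 1 had an unadjusted p under 0.05, and the likelihood ratio test and DESeq2 called 0. In pulldowns, 1 member passed at rest (9.15% of genes) and 1 after KCl (18.9%). The 4 markers of inhibitory neurons summed to 454 and 455 CPM in resting knockdown inputs and to between 987 and 1325 CPM in resting inputs without siRNA, and to 543 and 593 CPM against 1508 to 2232 CPM in resting pulldowns. After KCl, pulldowns had 749 and 829 CPM with knockdown and 1398 to 2189 CPM without siRNA. The astrocyte sums of 535 and 558 CPM in resting knockdown inputs lay within the 319 to 808 CPM without siRNA. Those of 471 and 561 CPM in resting knockdown pulldowns lay within 367 to 984 CPM. After KCl, the astrocyte sums were higher with knockdown and did not overlap. Inputs then had 716 and 758 CPM against 314 to 486 CPM, and pulldowns 692 and 875 CPM against 407 to 616 CPM. The part of these cells in the differences was not tested, and knockdown cannot be told apart from the experiment.

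Within the knockdown, Dusp6 was lower in pulldowns than in inputs at rest (log2 ratio −0.81, FDR 2.32e-05) and after KCl (−0.71, FDR 6.31e-05). Dusp4 was lower in pulldowns at rest (−0.61, FDR 0.00841), which was lost without input replicate 2 (FDR 0.0935) or pulldown replicate 1 (FDR 0.184), and had −0.18 after KCl (FDR 0.448). Dusp1 had 0.04 and 0.13, and neither passed. Dusp5 had a log2 ratio of 0.78 at rest (FDR 0.068), opposite in sign to Dusp6, and −0.27 after KCl (FDR 0.534). Its ratio at rest passed by the likelihood ratio test (FDR 0.0464). Leaving out 1 library gave ratios from 0.17 to 1.28, the highest without pulldown replicate 1. At rest 2 of 4 members passed where 45.5% of all genes did, and after KCl 1 where 48.8% did, so neither count sets the members apart from other genes.

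Over the 14 groups, the mean level of Dusp1 was higher in every group after KCl than in any group without it. Its 6 depolarized groups held the top places, from 838 CPM in TurboID-PSD95 pulldowns to 446 CPM in knockdown inputs, and each overlapped the next. A gap followed to the 4 resting groups without siRNA, which had means between 144 and 149 CPM and overlapped. The resting knockdown groups followed (114 and 111 CPM), and their pulldowns, at 92.7 and 128 CPM, overlapped the resting Pan-TurboID inputs. The DHPG groups (44.7 and 44.0 CPM) lay below all others. For Dusp6, knockdown inputs after KCl were highest at 224 CPM and DHPG pulldowns lowest at 18.7 CPM. Neighbouring groups of Dusp6 overlapped down to the resting knockdown inputs at 104 CPM, below which the resting pulldowns began at 68.8 CPM, although the highest resting TurboID-PSD95 pulldown (84.3 CPM) stood above the lowest depolarized Pan-TurboID pulldown (80.7 CPM). No libraries overlapped between the resting Pan-TurboID pulldowns, the resting knockdown pulldowns, the DHPG inputs and the DHPG pulldowns. Dusp4 ran from 161 ± 67.5 CPM in resting TurboID-PSD95 inputs to 43.2 ± 4.43 CPM in DHPG pulldowns, with 1 gap in the whole order, below the resting knockdown inputs. Dusp5 ran from 54.6 ± 4.64 CPM in depolarized TurboID-PSD95 inputs to 11.2 ± 0.065 CPM in resting knockdown inputs, and the place above that last group was its only gap.

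Per kb of CDS, resting TurboID-PSD95 inputs had 135 ± 11 CPM per kb for Dusp1, 135 ± 56.4 for Dusp4, 99.5 ± 12.6 for Dusp6 and 23.3 ± 11 for Dusp5. After KCl, the densities were 524 ± 59.1 for Dusp1, 165 ± 38.2 for Dusp6, 106 ± 26.2 for Dusp4 and 47.3 ± 4.02 for Dusp5. At rest, Dusp1 and Dusp4 had the same mean density with a wider spread in Dusp4, and after KCl Dusp1 had the highest.

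Genes were ranked by how closely their mean level, on a log2 scale, followed that of each member over the 14 groups, among 12080 genes with enough counts. The groups share cultures and libraries, so the coefficients only describe likeness. Closest to Dusp1 were the immediate early gene Nr4a1 (Pearson 0.981), the immediate early gene Fos (0.964) and Tbc1d15, which encodes a GTPase-activating protein for Rab proteins (0.953). Closest to Dusp4 were Mitf, a transcription factor (0.956), Sdk1, an adhesion molecule (0.948), and Luzp2 (0.943). Closest to Dusp5 were Tmem126b, an assembly factor of mitochondrial complex I (0.93), Cyc1, a subunit of complex III (0.929), and Nptx1, a secreted neuronal pentraxin (0.928). Closest to Dusp6 were Ppib, a peptidyl-prolyl isomerase of the endoplasmic reticulum (0.978), Tnfrsf12a, a receptor of the TNF family (0.969), and the pseudogene Ftl1-ps1 (0.968), whose reads cannot be told apart with certainty from those of Ftl1. Among the members, Dusp1 and Dusp6 were most alike (0.845) and Dusp4 and Dusp5 least (0.338).

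Footprints were also counted in the 5′ UTRs. The position of a footprint was its 5′ end with no offset, so that a ribosome on the start codon counts toward the 5′ UTR, and the 5′ UTR value includes initiating ribosomes. The 5′ UTRs of Dusp4 and Dusp6 each hold 1 upstream ATG that is followed by a stop before the CDS, and those of Dusp1 and Dusp5 hold none. Their GC content is 64.3% in Dusp1, 62.3% in Dusp4, 76.1% in Dusp5 and 56.8% in Dusp6. Counts in the 5′ UTR of Dusp1 rose after KCl in TurboID-PSD95 pulldowns (log2 fold change 2.08, FDR 0.027), where 0.285% of 10158 genes passed, and the call was lost without replicate 2 (1.48, FDR 0.758) or replicate 3 (2.24, FDR 0.916). In the TurboID-PSD95 inputs (1.46, FDR 0.661), Pan-TurboID inputs (1.19, FDR 1.0) and Pan-TurboID pulldowns (1.5, FDR 0.436), Dusp1 did not pass, and no other member did in any of the 4 comparisons. With the replicate block Dusp1 passed in TurboID-PSD95 inputs (1.43, FDR 0.016) and Pan-TurboID pulldowns (1.46, FDR 0.0159). Without the block, in the 3 comparisons where Dusp1 did not pass, 0.118%, 0.0886% and 0.128% of genes passed, 1, 1 and 2 members had an unadjusted p under 0.05, and the likelihood ratio test called 0. Over both ligases, Dusp1 passed in inputs (1.33, FDR 0.0367, 0.443% of genes) and in pulldowns (1.79, FDR 0.00045, 1.2% of genes).

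In knockdown inputs, 5′ UTR counts rose after KCl for Dusp1 (1.42, FDR 0.00329), Dusp6 (1.08, FDR 0.0064) and Dusp4 (1.32, FDR 0.0382), 3 members where 3.45% of 8069 genes passed. All 3 calls were lost when any 1 of the 4 libraries was left out, with FDRs from 0.0558 to 0.584. Dusp5 had a log2 fold change of 1.91 (FDR 0.107), and by the likelihood ratio test it passed too (FDR 0.00684), which made 4 of 4 members where that test called 789 of 8069 genes. In knockdown pulldowns, Dusp1 rose (1.90, FDR 0.00385), 1 member where 0.459% of genes passed. The log2 fold change of the Dusp4 CDS in the same knockdown inputs was 0.04.

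The 5′ UTR share, that is 5′ UTR counts over 5′ UTR plus CDS counts, moved in opposite directions in Dusp1 and Dusp4. In the 6 inputs of both ligases, the share of Dusp1 averaged 32.9% at rest and 24.1% after KCl, a difference of −8.81 percentage points. The share of Dusp4 averaged 30.8% at rest and 43.3% after KCl, a difference of 12.5 points. Resting libraries of Dusp1 ran from 27.2% to 39.1% and depolarized ones from 22.7% to 26.2%, and those of Dusp4 from 27.2% to 35.0% and from 37.3% to 49.1%, so neither pair of groups overlapped. Both reached 0.0021645, the smallest p that 924 assignments of 12 libraries can give (exact permutation test, two-sided), with an FDR of 0.0633. Of 10180 genes tested, 348 (3.42%) reached that p, 1847 had an unadjusted p under 0.05 and none passed the FDR (0.0%), so no member passed. The test took all 12 libraries as separate, although same-numbered libraries of both ligases may come from the same biological replicate, which would make its p too small. Permuted within each ligase, both genes had an exact p of 0.005 (FDR 0.104). With depolarized and resting inputs paired by ligase and replicate number, both had an exact p of 0.03125 (FDR 0.235). The median difference over all genes was 1.37 points, toward a higher share after KCl.

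Dusp5 (30.1% at rest and 28.2% after KCl, exact p = 0.593) and Dusp6 (44.3% and 41.9%, exact p = 0.418) gave no sign of a change in inputs at this spread. A test with limma of the log2 ratio of 5′ UTR to CDS counts, added after seeing the data, gave differences of −0.62 (FDR 0.158) for Dusp1 and 0.78 (FDR 0.0927) for Dusp4, with 230 genes called and a median over all genes of 0.17. In pulldowns, the share of Dusp4 was 14.8% at rest and 27.6% after KCl (exact p = 0.00649, FDR 0.286), and that of Dusp1 was 15.6% and 10.2% (exact p = 0.0563, FDR 0.507). There, 0 of 9428 genes passed (0.0%), 947 had an unadjusted p under 0.05, 1 of them a member, and limma called 0. Permuted within each ligase, the exact p of Dusp4 in pulldowns was 0.01 (FDR 0.383). With depolarized and resting libraries paired by ligase and replicate number, it was 0.0625 (FDR 0.448). Shares were lower in pulldowns than in inputs for all 4 genes in each group, and the median over all genes was lower as well.

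With knockdown, inputs of Dusp4 had shares of 24.5% ± 1.42 (SD, n = 2) at rest and 44.1% ± 2.11 after KCl, and those of Dusp1 had 18.3% ± 0.56 and 13.2% ± 1.96. Over all genes, the median share in these inputs was 14.4% at rest and 18.9% after KCl. Both moved in the direction seen without siRNA, and limma called neither (FDR 0.214 for Dusp4 and 0.378 for Dusp1). After DHPG, inputs had 16.7% ± 1.95 for Dusp1, 25.8% ± 1.93 for Dusp4, 21.6% ± 1.56 for Dusp5 and 39.0% ± 0.99 for Dusp6. Dusp6 thus held the highest share of the 4 genes in resting and DHPG inputs, and its share stayed between 38.4% and 46.1% in all 7 input groups.

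**Figure D4:**
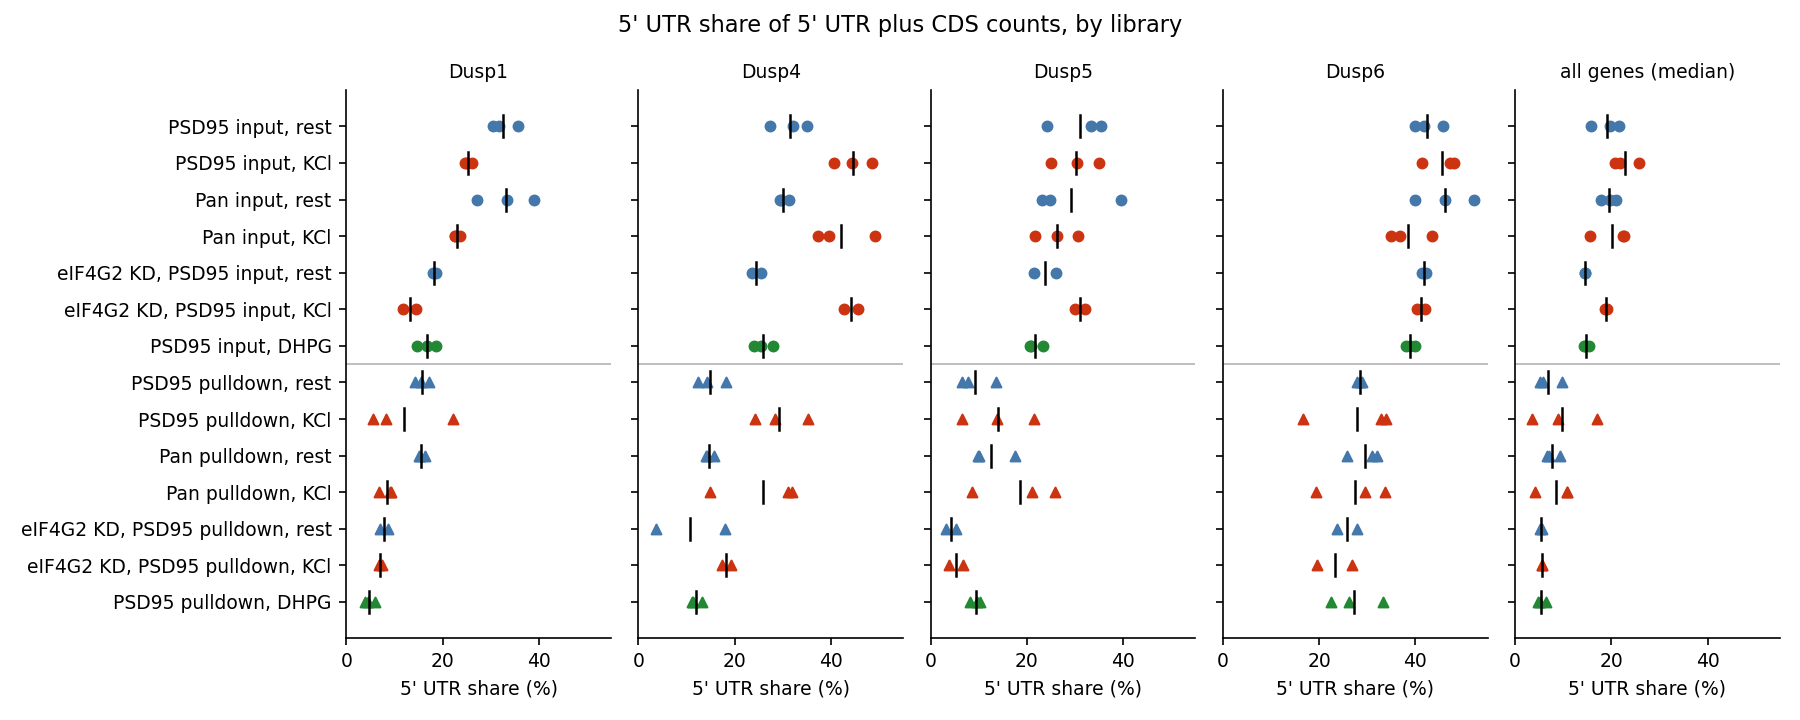
Share of 5′ UTR counts in 5′ UTR plus CDS counts, in percent, for the 4 genes and for the median over all genes in each group, with a point per library and a tick at the group mean. In inputs without siRNA, KCl points of Dusp1 lie left of the resting points and those of Dusp4 lie right of them, whereas those of Dusp5 and Dusp6 overlap.

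The place of the CDS footprints of Dusp4 was also compared, a comparison added after the shares were seen. Across the 6 inputs of both ligases, the first coding exon of Dusp4 (445 nt) held 21.1% to 28.1% of CDS counts at rest and 36.4% to 54.0% after KCl. The means were 25% and 47.2%, again at the smallest possible p of 0.0021645 (exact permutation test, FDR 0.0651), which 296 of 8898 genes reached. Permuted within each ligase, the exact p was 0.005 (FDR 0.104). Same-numbered libraries of both ligases were again taken as separate. The median difference over all genes was 2.05 points against 22.1 points for Dusp4. Dusp5 went from 45.6% to 56.1% (exact p = 0.0325, FDR 0.22), Dusp1 from 63.1% to 57.0% (exact p = 0.0952) and Dusp6 from 52.2% to 47.7% (exact p = 0.175). No gene passed the FDR. In pulldowns, Dusp4 had 17.4% at rest and 27.4% after KCl (exact p = 0.0649), and the depolarized libraries spread from 11.2% to 42.4%.

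The density of footprints along Dusp4 in TurboID-PSD95 inputs shows where the counts moved. In the 5′ UTR, it was 175 ± 82.3 CPM per kb at rest and 233 ± 22.3 after KCl, and in the first coding exon 101 ± 43.3 and 147 ± 32.4. In the second coding exon it was 145 ± 17.9 at rest and 82.0 ± 15.7 after KCl, in the third 270.1 ± 152 and 123 ± 56.6, and in the fourth, which holds the catalytic loop shown above, 92.5 ± 38.8 and 60.0 ± 15.5. Values after KCl were higher upstream and lower downstream, within wide spreads. In other groups the first exon of Dusp4 held 45.1% ± 2.68 of CDS counts in DHPG inputs, and 34.2% ± 5.69 and 37.9% ± 1.68 in resting and depolarized knockdown inputs, above the resting range of 21.1% to 28.1% in the libraries without siRNA, and the knockdown groups overlapped.

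Dusp1 rose along the whole CDS. Its density went from 260 ± 18.8 to 912 ± 165 CPM per kb in the first coding exon, from 70.3 ± 16.2 to 325 ± 84.9 in the second, from 129 ± 30.3 to 577 ± 126 in the third and from 39.9 ± 13.5 to 188 ± 30.3 in the fourth. The 5′ UTR rose from 367 ± 38.3 to 1001 ± 153. The rise was thus smaller in the 5′ UTR than in each coding exon. In Dusp6, the 5′ UTR went from 184 ± 33.3 to 337 ± 42.4 and the 3 coding exons from 148 ± 13.5, 84.8 ± 14.9 and 56.8 ± 16.0 to 242 ± 43.9, 151 ± 52.5 and 84.6 ± 10.7. In Dusp5, the first coding exon went from 31.7 ± 13.3 to 86.0 ± 6.69 and the fourth from 17.9 ± 15.0 to 23.5 ± 12.7. In the 3′ UTRs of all 4 genes, at most 36 counts fell in any library.

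**Figure D5:**
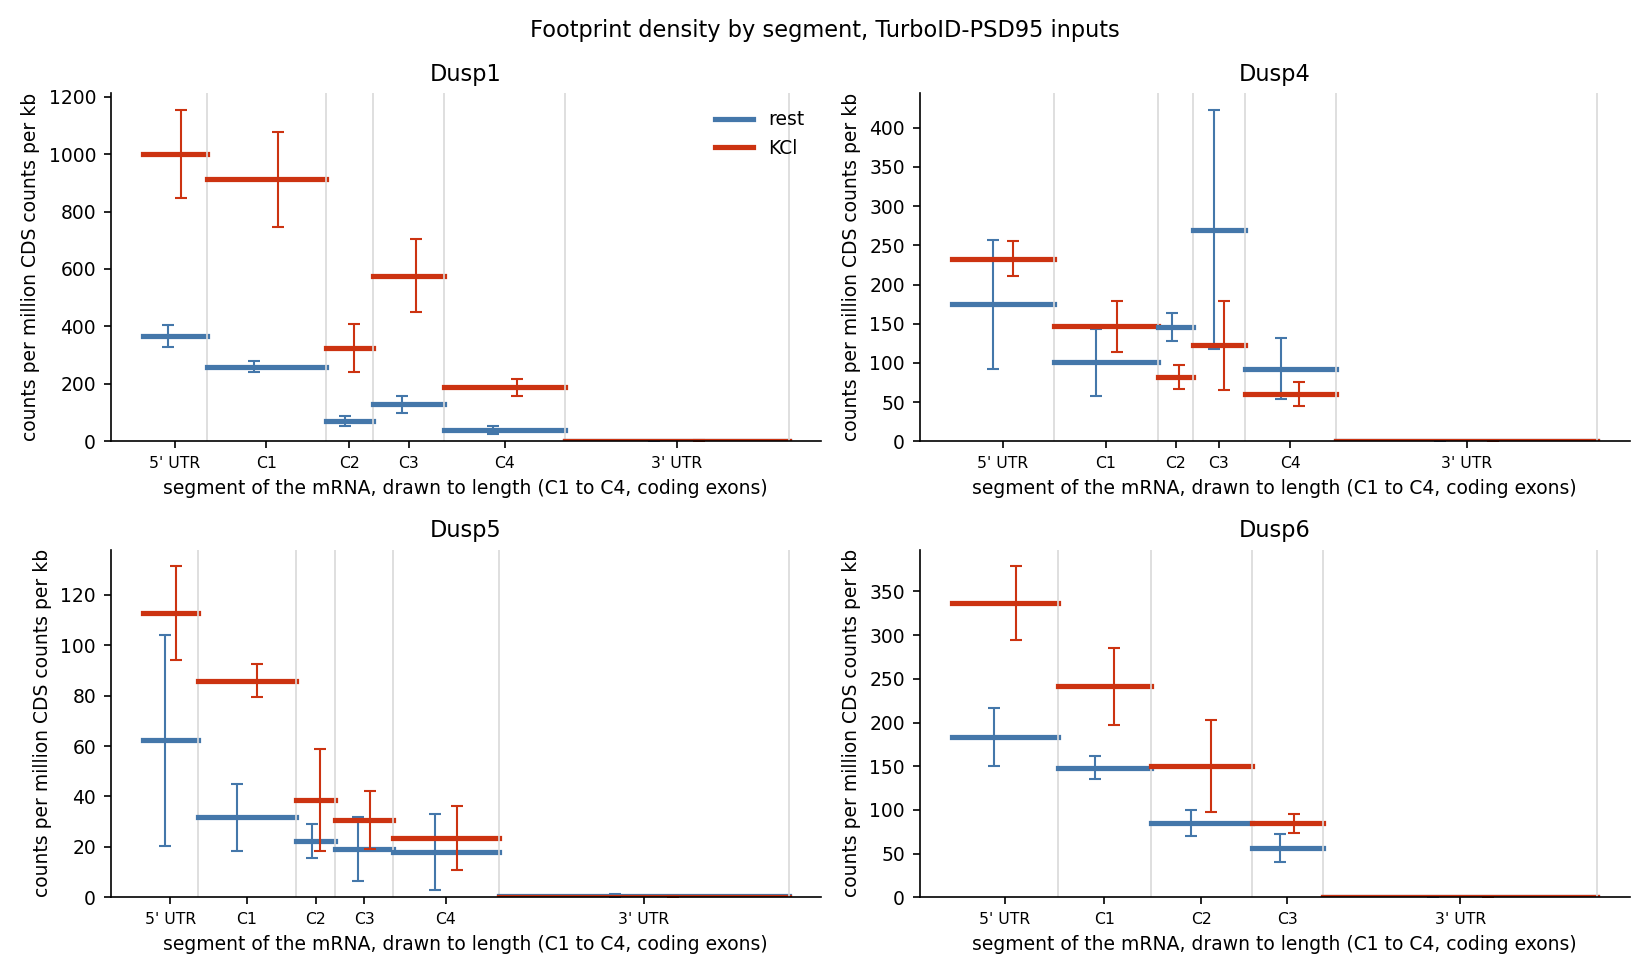
Footprint density in CPM per kb (mean and 1 SD, n = 3) over the 5′ UTR, coding exons and 3′ UTR of each gene, drawn to length, in resting (blue) and depolarized (red) TurboID-PSD95 inputs. Red lies above blue in every coding exon of Dusp1, whereas in Dusp4 red lies above blue in the 5′ UTR and the first exon and below it in the other exons.

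The rest of the family and the pathway were read from a list of 68 other genes of MAP kinase signalling. Of 6 further MAP kinase phosphatases, Dusp9 was not tested for low counts. Dusp8, a phosphatase of JNK and p38, fell in TurboID-PSD95 pulldowns (log2 fold change −0.94, FDR 0.00271), Pan-TurboID inputs (−0.90, FDR 0.00477) and Pan-TurboID pulldowns (−0.70, FDR 0.0264), and was at −0.61 in TurboID-PSD95 inputs (FDR 0.0599). Dusp7, a cytoplasmic phosphatase of ERK like Dusp6, fell in inputs of TurboID-PSD95 (−0.80, FDR 0.0482) and Pan-TurboID (−0.81, FDR 0.0463). Dusp10, a phosphatase of JNK and p38, rose in TurboID-PSD95 pulldowns (1.58, FDR 0.0487), and it was at 1.07 in the inputs (FDR 0.214). In the knockdown, Dusp8 fell in inputs (−0.88) and pulldowns (−1.05) and Dusp10 rose in pulldowns (1.52, FDR 0.0241). Dusp2 and Dusp16 did not pass in any of the 6 KCl comparisons.

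Of all genes, 4.29% passed in either direction in TurboID-PSD95 inputs, 6.59% in TurboID-PSD95 pulldowns, 4.07% in Pan-TurboID inputs and 5.03% in Pan-TurboID pulldowns. Of the 62 listed genes that were tested, 0 rose and 6 fell in TurboID-PSD95 inputs and 1 rose and 6 fell in TurboID-PSD95 pulldowns. Of the same listed genes, 0 rose and 8 fell in Pan-TurboID inputs and 0 rose and 4 fell in Pan-TurboID pulldowns. Their median log2 fold changes were −0.14, −0.17, −0.15 and −0.20 in that order, beside medians over all genes of −0.02, 0.03, 0.00 and 0.03. In TurboID-PSD95 inputs, those that fell included, besides Dusp7, Spred1 (−1.70) and Spred2 (−1.84), inhibitors of Ras signalling, the JNK gene Mapk10 (−1.53) and Rasa1 (−0.84), a GTPase-activating protein of Ras. Of the 61 listed genes tested in the knockdown, 1 rose and 13 fell in inputs and 4 rose and 10 fell in pulldowns. There, 19.3% of all genes passed in either direction in inputs and 22.2% in pulldowns. Most listed genes of the pathway did not rise as Dusp1 and Dusp6 did. That also holds for most of all genes tested, so it does not set the pathway apart.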

How the data were processed

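PL-Ribo-seq footprints came from 38 libraries, each with a file per region (coding sequence and both UTRs), 114 in all. The authors trimmed reads, removed molecular identifiers and aligned to mm10 with Rsubread. Per the file headers, ribosomal RNA and duplicates had been removed, and plastid counted footprints of 25 to 100 nt by their 5′ end, with an offset of 0. Removing duplicates can flatten strongly covered short regions. The version of plastid, the use of strand and how duplicates were found are not given in the sources used here. The deposited counts are whole numbers per exon segment, and the deposited RPKM values equal those counts scaled by length and library total in all 36089664 segments (largest relative difference 5.0e-09).

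Segments were summed for the longest transcript of each gene. Of 67238 coding transcripts, 66664 (99.15%) matched GENCODE M21. CPM is the count scaled to 1e+06 CDS counts per library. CDS counts were tested with edgeR 4.0.16 (R 4.3.3) by the robust quasi-likelihood test, with TMM scaling, filterByExpr and an FDR of 0.05 over all genes tested. A single fit held all 24 KCl and resting libraries without siRNA. There, the replicate block was shared by all libraries of the same number, so it did not pair input with pulldown by culture. Counts in 5′ UTRs used the CDS library sizes. Each SE is the absolute log2 fold change over the root of its F statistic, and intervals are at 95%. Shares were compared by exact permutation over genes with at least 10 counts in every library. Their blocked alternative paired depolarized with resting libraries by ligase and replicate number. Alternatives were RLE and no further scaling, no filter, the likelihood ratio test, DESeq2 1.42.0 and limma 3.58.1. The study used the likelihood ratio test for dendritic translation within resting or depolarized neurons. For depolarized minus resting, it used z-scores of log2 fold changes. Further alternatives were another transcript, fits of fewer groups, leaving out replicates, and the replicate number as a block. The numbers paired input with pulldown in the 4 comparisons without siRNA or DHPG, where deviations of same-numbered libraries correlated at 0.159 to 0.518, and by correlation paired no other groups. For KCl against rest, whose samples of 1 biological replicate the study processed at the same time, those correlations were −0.194 to 0.234, so blocked values stand beside the unblocked where a call changed. Replicates are taken as separate samples from the labels, and p-values measure only the spread between these samples, which may be technical. Tests over both ligases also took same-numbered libraries of the ligases as separate, although these may come from 1 biological replicate. No pair of replicates agreed within sampling noise.

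The named genes are the 4 members in each comparison, the other MAP kinase phosphatases, at most 2 listed pathway genes per role and direction with the smallest p in TurboID-PSD95 inputs (those past the FDR are given, except 1 that is not reported here), the 3 genes most like each member, and Eif4g2. The members and lists were chosen with earlier results of these data known. For DHPG inputs and knockdown libraries, grouping followed the labelled virus, PSD95-TurboID, although another label places them in the cytosol. The tests were checked on simulated data.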

Additional observations from a re-analysis of the deposited data

Results flagged for a closer look

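The share of 5′ UTR counts in Dusp1 was 22.2% in replicate 2 of the depolarized TurboID-PSD95 pulldowns, far from the other 5 depolarized pulldowns of both ligases, which ran from 5.56% to 9.35%. Dixon's test at 95% was applied to 16 groups of 6 libraries, of which 1 held such a library, and chance marks about 1 in 20. The median share over all genes was also highest in that library among the 3 depolarized TurboID-PSD95 pulldowns. It was 17.0% there, against 3.59% in replicate 1 and 8.82% in replicate 3, and its part in the Dusp1 value was not tested. Without replicate 2 of each group, the share of Dusp1 differed between depolarized and resting pulldowns by −7.69 points, against −5.44 points with it. Without replicate 1 the difference was −3.83 points, and without replicate 3 it was −4.79 points.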

How the results depend on the processing

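The KCl response of Dusp1 kept its direction and its call under all 72 alternatives over 6 comparisons (log2 fold change 1.83 to 2.67, highest FDR 0.00311), and that of Dusp6 under 61 of 72 (0.65 to 1.26, highest FDR 0.442). A call kept here is the outcome of the main fit, passed or not, and Dusp6 did not pass in TurboID-PSD95 inputs. Libraries of 2 or 3 per group, counts as low as 36 for Dusp5 and the opposite-strand gene at Dusp5 limit the rest. In each comparison below, member counts are those past the FDR, and the cause of a move was not tested. Where no share of all genes stands beside a member count, here or in the results above, that count describes the members only. Averaging both ligases, the limma test of shares, the first-exon share and leaving out single knockdown libraries were chosen after seeing the data. Leaving out a whole replicate number of the knockdown leaves no spread to test, so that was not run within the knockdown.

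The KCl count in TurboID-PSD95 inputs was 1, and it was 2 with the replicate block, 2 with DESeq2, 2 with only the groups compared and 3 over both ligases. There, Dusp6 passed with the block (0.72), DESeq2 (0.78), only the groups compared (0.74) and both ligases (0.85). In TurboID-PSD95 pulldowns, Dusp5 passed with the block (1.16), and with only the groups compared the count was 1 and Dusp6 did not pass (1.1). Over both ligases Dusp5 passed in inputs (1.01) and pulldowns (1.08) of either. The block moved the calls of Dusp6 and Dusp5 named here, and by the study's methods same-numbered resting and depolarized samples were processed together.

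For pulldown over input, the count at rest with TurboID-PSD95 was 0 with the transcript of highest count. It was 1 after KCl with RLE, the likelihood ratio test, the block, the transcript of highest count and DESeq2. At rest with Pan-TurboID it was 1 with the likelihood ratio test, the block, DESeq2 and only the groups compared, and after KCl 1 with RLE, the likelihood ratio test and the transcript of highest count and 2 with the block and DESeq2. Knockdown over no siRNA gave 1 in resting inputs with no filter, the block and DESeq2, 0 in resting pulldowns with only the groups compared, and in depolarized pulldowns 2 with no filter, 2 with the block and 0 with only the groups compared. For 5′ UTR counts after KCl, the count was 1 with the block or both ligases in TurboID-PSD95 inputs and Pan-TurboID pulldowns, 1 with both ligases in Pan-TurboID inputs, and in knockdown pulldowns 2 with no filter and 3 with the likelihood ratio test.

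With all replicates kept, the signs that turned were as follows. For the pulldown minus input response, TurboID-PSD95 Dusp4 was 0.0011 without further scaling and 0.016 with no filter, Dusp5 −0.023 with the transcript of highest count and −0.028 with only the groups compared, and Pan-TurboID Dusp6 −0.017 with RLE, −0.038 with the transcript of highest count, −0.016 with DESeq2 and −0.031 with only the groups compared. The ligase difference of Dusp5 was 0.087 with the block. Dusp1 in resting TurboID-PSD95 pulldown over input was 0.040 with RLE, 0.048 with the transcript of highest count, 0.039 with DESeq2 and 0.031 with only the groups compared. Without further scaling, Dusp1 was −0.019 in DHPG pulldown over input and −0.070 in resting knockdown pulldown over input, and Dusp5 −0.016 in DHPG over resting pulldown. The knockdown difference of the Dusp1 input response was −0.0033 with RLE, −0.0047 with DESeq2 and −0.0036 with only the groups compared.

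Without 1 replicate, the KCl count ran from 1 to 2 in TurboID-PSD95 pulldowns, Pan-TurboID inputs and Pan-TurboID pulldowns, with Dusp6 from 1.0 to 1.25, 0.77 to 1.08 and 0.70 to 1.11. The count was 0 for resting TurboID-PSD95 pulldown over input and for knockdown over no siRNA in resting and in depolarized pulldowns, and 1 to 2 for DHPG and for resting knockdown pulldown over input. For 5′ UTR counts it was 0 to 2 in TurboID-PSD95 pulldowns, 0 to 1 in Pan-TurboID pulldowns, 0 in knockdown inputs and 1 to 3 in knockdown pulldowns. Ranges that crossed 0 were, for pulldown minus input, Dusp5 −0.12 to 0.11 with TurboID-PSD95 and −0.34 to 0.48 with Pan-TurboID, and Dusp6 −0.074 to 0.026. For the ligase difference they were Dusp1 −0.020 to 0.17, Dusp5 −0.62 to 0.49 and Dusp6 −0.059 to 0.36. For pulldown over input they were Dusp1 −0.0052 to 0.033 in resting TurboID-PSD95 neurons, Dusp5 −0.19 to 0.038 and −0.61 to 0.033 after KCl with each ligase, Dusp5 −0.21 to 0.048 after DHPG, Dusp1 −0.19 to 0.27 and −0.0040 to 0.26 in resting and depolarized knockdown, and Dusp5 −0.55 to 0.015 in depolarized knockdown. DHPG over rest gave Dusp5 −0.16 to 0.64 in inputs and −0.085 to 0.86 in pulldowns. The knockdown response gave Dusp4 −0.026 to 0.095 in inputs and Dusp5 −0.17 to 0.95 in pulldowns. Knockdown over no siRNA gave Dusp6 −0.20 to 0.0053 in resting inputs and −0.25 to 0.12 in depolarized pulldowns, and the difference of input responses Dusp1 −0.062 to 0.045 and Dusp5 −0.55 to 0.90. The share difference in points ran from −4.17 to 1.22 for Dusp5 in inputs and from −5.21 to 4.20 for Dusp6 in pulldowns.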
